A study of Mus musculus with 7 samples.

Results

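The 10 lipid storage genes described as targets of the nuclear receptor PPARg were followed in RNA sequencing of alveolar macrophages, the phagocytes that live on the airway side of the lung epithelium. They were chosen by gene symbol: Fabp1, Fabp4, Fabp5, Lpl, Angptl4, Plin2, Cidec, Dgat1, Dgat2 and Pnpla2, which are 10 of the 26143 genes with a symbol in the deposited count table. All 10 passed the filter on low counts, as did 12759 genes in all. The cells were sorted from C57BL/6 mice aged 4 months. The tested mice were Cish-/- (KO, 3 libraries) and lacked a STAT5-induced inhibitor of cytokine signalling, and the controls were WT (4 libraries). The sources used here do not say which part of Cish is deleted, whether the control mice were littermates, or whether the libraries were made from different mice. The p-values therefore reflect the spread among the libraries sequenced, which may be technical.

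PPARg forms a dimer with RXR, binds direct repeats of a short DNA half-site and, when bound by fatty acids or their derivatives, increases transcription of genes for lipid uptake, binding and storage. In alveolar macrophages, PPARg is induced by GM-CSF signalling and is required for the cells to mature and to clear the lipids of lung surfactant. Fatty acids taken up by the cell are carried by binding proteins, esterified to triglyceride, stored in droplets and released again by lipases.

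The 10 genes did not differ in a single direction. Cidec, a droplet protein, and Angptl4, the inhibitor of lipoprotein lipase, were lower in every KO library than in every WT library, at 0.640 and 0.766 times the WT mean. Fabp5, a fatty acid binding protein, and Dgat1, an enzyme of triglyceride synthesis, were higher in every KO library than in every WT library, at 2.51 and 1.45 times the WT mean. Of all genes tested, 16% were without such overlap between KO and WT libraries. None of these differences passed a Benjamini-Hochberg adjusted p of 0.05 in the edgeR quasi-likelihood test. DESeq2 called Cidec and Angptl4 lower and Dgat1 higher, where it called 5.51% of all genes. Fabp1 and Plin2, among the most highly expressed genes of these cells, were at 0.962 and 0.938 times the WT mean.

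Promoter sequences are shown for the 3 genes with an inexact match, of 1 to 3 mismatches, to a PPARg-type direct repeat near the start. They were chosen because they include both the droplet gene that was lower in KO and the abundant genes that differed little. The motif searched was a pair of AGGTCA half-sites on the same strand spaced by 1 base, on both strands of the 250 bases before the RefSeq start. Of the 10 genes, 4 were in the RefSeq promoter table (GRCm38.p6, the build called mm10): Fabp1, Plin2, Cidec and Pnpla2. The sequences run 5′ to 3′ on the strand of the gene and end at the base before the gene's first base in the GENCODE annotation. Capitals mark the match with the fewest mismatches, which in each case lay on the opposite strand. Fabp1 is on the plus strand (chr6:71199629-71199826), Plin2 on the minus strand (chr4:86670061-86670309) and Cidec on the minus strand (chr6:113435761-113436010).
Fabp1: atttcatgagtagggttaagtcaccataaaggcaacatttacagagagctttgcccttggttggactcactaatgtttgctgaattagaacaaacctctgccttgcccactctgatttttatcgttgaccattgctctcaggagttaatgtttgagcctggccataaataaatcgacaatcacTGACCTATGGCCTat
Plin2: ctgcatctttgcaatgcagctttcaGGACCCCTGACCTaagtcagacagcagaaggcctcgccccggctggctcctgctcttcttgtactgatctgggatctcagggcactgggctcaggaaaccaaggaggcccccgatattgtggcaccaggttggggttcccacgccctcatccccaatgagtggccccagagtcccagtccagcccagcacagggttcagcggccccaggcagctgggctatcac
Cidec: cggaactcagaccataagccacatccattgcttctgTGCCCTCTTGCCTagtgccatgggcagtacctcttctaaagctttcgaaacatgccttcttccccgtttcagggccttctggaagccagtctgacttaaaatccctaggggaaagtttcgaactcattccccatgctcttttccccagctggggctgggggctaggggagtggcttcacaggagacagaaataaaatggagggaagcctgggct

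The Fabp1 match had 1 mismatch in the 12 fixed bases and lay 67 to 55 bases before the RefSeq start, at chr6:71199812-71199824. A match with at most 1 mismatch was present in 0.484% of 32851 mouse promoters. The Plin2 match had 2 mismatches, 225 to 213 bases before the start, and 3.24% of promoters held a match with at most 2. The Cidec match had 3 mismatches, 214 to 202 bases before the start, and 21.3% of promoters held a match that loose. The matches are descriptions of these letters. They do not show binding. Fabp4 and Fabp5, with the largest fold changes of the 10 genes, were not searched, and a relation between match and difference was not tested.

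The libraries held 26780291 to 34483612 counts, and log2 CPM values of library pairs correlated at 0.960 to 0.988 across genes. CPM, the unit of levels here, are read counts made comparable between libraries by dividing by the library total times its TMM factor, a scaling factor that edgeR estimates. All 14 alveolar macrophage markers were detected, 7 with higher and 7 with lower fitted levels in KO. Siglecf, named after its values were seen, was at 372, 455 and 433 CPM in KO and 521 to 587 CPM in WT. DESeq2 called 4 of the 14 lower, Siglecf among them (DESeq2 adjusted p = 0.0033), and 1 higher. Cish itself had 12.9, 14.3 and 10.9 CPM in KO, against 46.3, 29.6, 38.1 and 67.9 CPM in WT (log2 fold change -1.84 ± 0.26 SE, edgeR adjusted p = 0.0519, DESeq2 adjusted p = 2.88e-11). The groups did not overlap. WT 4 had a score of -7.27 on the first principal component (42.6% of variance), against -43.9 to -18.3 for the KO libraries and 24.1 to 39.4 for WT 1 to 3, so each gene is also given without WT 4 and KO 3, the libraries nearest each other across genotypes on that component. Leaving out these nearest libraries of the 2 genotypes widens the difference between them by construction (590 genes were then called by edgeR). Leaving out WT 4 alone, the WT library nearest the KO libraries on that component, does the same (284 genes called, 2.25% of those tested). Values from both fits are therefore a description and support no call. Bulk RNA cannot tell apart fewer cells of a type and less RNA per cell.

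By edgeR, 0 of the 10 genes passed an adjusted p of 0.05, where 0.0862% of all genes tested did (11 of 12759). At an unadjusted edgeR p below 0.05 there were 6 of the 10, 3 higher (Fabp4, Fabp5 and Dgat1) and 3 lower (Cidec, Angptl4 and Dgat2), against 18% of all genes. DESeq2 called 3 of the 10 at an adjusted p below 0.05, against 5.51% of all genes (746 of 13541, 356 higher and 390 lower). The KO and WT libraries did not overlap for 4 of the 10, 2 higher and 2 lower, against 16% of all genes. The median log2 fold change of the 10 was -0.07, and that of all tested genes was 0.00. The summed level of the 10 was 7823, 8919 and 7442 CPM in KO, against 8046, 8814, 8983 and 8070 CPM in WT, so the groups overlapped.

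**Figure D1:**
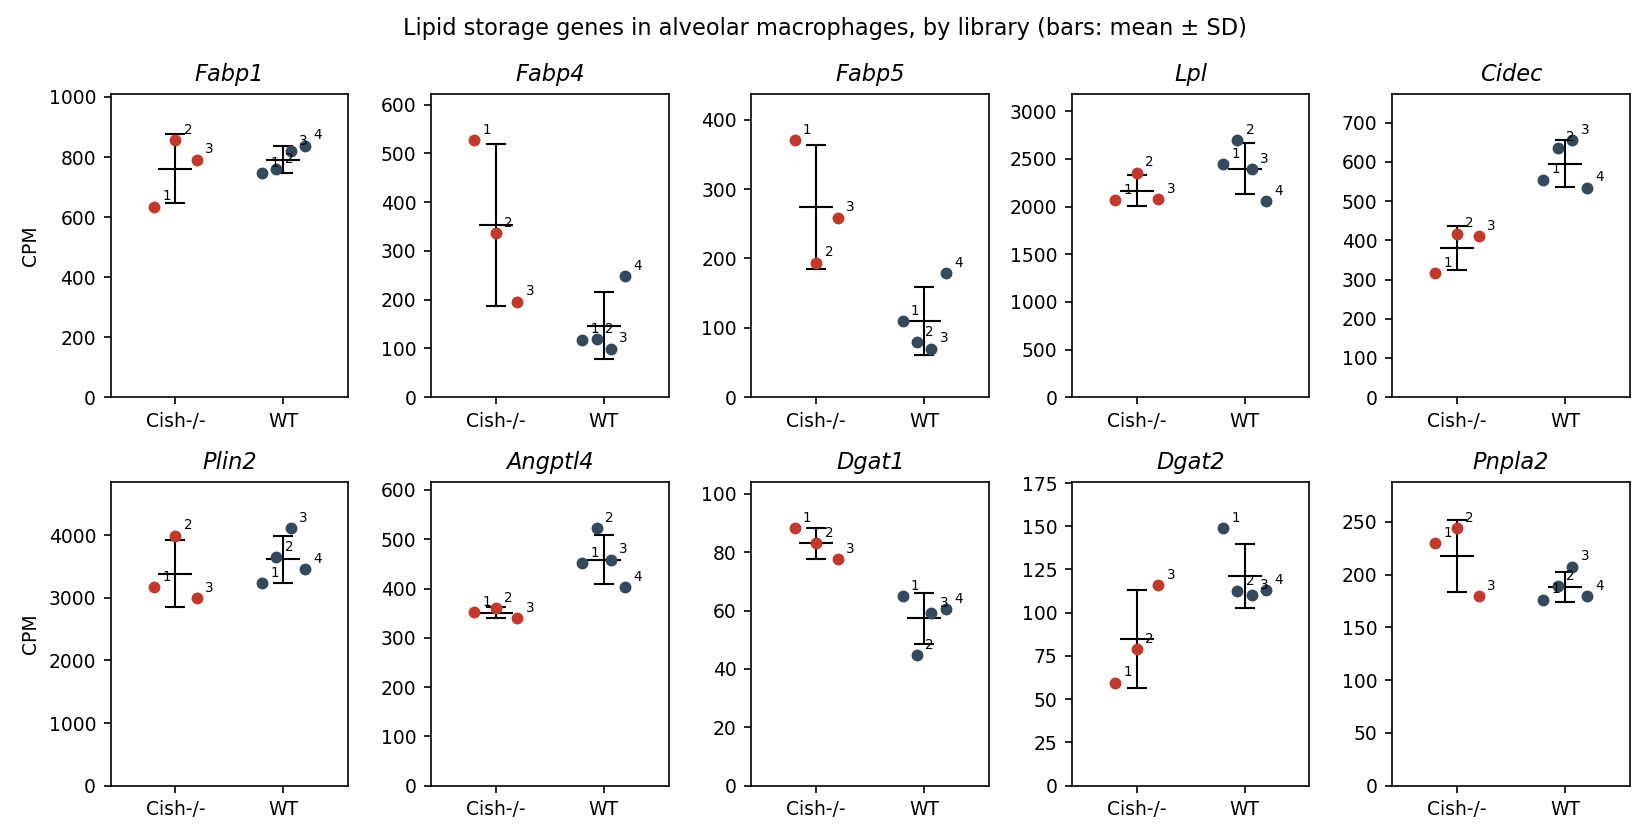
Level of each of the 10 lipid storage genes in CPM (y axis, linear, from 0) in the 3 Cish-/- libraries and the 4 WT libraries. Points are libraries with their replicate number, and bars are mean ± SD. Cidec and Angptl4 separate downward in Cish-/-, Fabp5 and Dgat1 separate upward, and Fabp4 overlaps through Cish-/- 3 and WT 4.

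Fatty acid binding proteins keep fatty acids soluble in the cytoplasm and carry them to enzymes and to nuclear receptors. Fabp1, the liver type, had 635, 857 and 791 CPM in KO, against 747, 760, 819 and 838 CPM in WT. KO 1 was the lowest library and KO 2 the highest, so the groups overlapped. The fitted log2 fold change was -0.06 ± 0.11 SE (edgeR adjusted p = 0.829). Without KO 1 it was 0.060 (edgeR adjusted p = 0.884), so its sign rested on that library, and without WT 4 and KO 3 together it was -0.05.

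Fabp4, the adipocyte type, is also expressed by capillary endothelium. It had 528, 336 and 196 CPM in KO, against 118, 120, 99.8 and 249 CPM in WT. All KO libraries were above WT 1 to 3, but WT 4 was above KO 3, so the groups overlapped. The mean was 353 ± 167 CPM in KO and 147 ± 68.7 CPM in WT (SD, n = 3 and 4), a ratio of 2.41. The log2 fold change was 1.27 ± 0.37 SE (edgeR adjusted p = 0.141, DESeq2 adjusted p = 0.136). Without WT 4 the log2 fold change was 1.65 and passed the threshold (edgeR adjusted p = 0.0455), where 2.25% of all genes tested did. That omission widens the difference by construction and supports no call. Without KO 1 the log2 fold change was 0.86 and did not pass (edgeR adjusted p = 0.521). Without both WT 4 and KO 3 it was 1.94.

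Fabp5, the epidermal type, lies on the same chromosome as Fabp4 (chr3:10012548-10016607, plus strand, against chr3:10204088-10208576, minus strand, for Fabp4). It had 371, 194 and 259 CPM in KO, against 109, 79.7, 69.9 and 179 CPM in WT. Every KO library was above every WT library, although KO 2 and WT 4 were close. The mean was 275 ± 89.5 CPM in KO and 110 ± 49.3 CPM in WT (SD, n = 3 and 4). The difference was 1.33 ± 0.32 SE on the log2 scale (edgeR adjusted p = 0.107, DESeq2 adjusted p = 0.0524). Without WT 4 it was 1.67 and passed (edgeR adjusted p = 0.032). In that fit 2.25% of all genes tested passed, and it supports no call. Without KO 1 the log2 fold change was 1.05 and did not pass (edgeR adjusted p = 0.441). Without WT 4 and KO 3 it was 1.71. Of the 50-base stretches of Fabp5 transcripts, 5.48% also occur in other genes, mainly Gm6166 and Gm14328, which are not analysed here, so its counts may hold some of their reads.

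Fabp4 and Fabp5 stood in overlapping proportions in both genotypes. The ratio of Fabp4 to Fabp5 counts was 1.42, 1.73 and 0.758 in KO, against 1.08, 1.5, 1.43 and 1.39 in WT, and KO 3, with the lowest Fabp4 count of the KO libraries, had the lowest ratio. The ratio of Fabp1 to Fabp4 counts was 1.2, 2.55 and 4.03 in KO, against 6.31, 6.36, 8.21 and 3.37 in WT. KO 3 was above WT 4 and the other KO libraries were below all WT libraries. These ratios were not tested.

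Markers of other cells were examined beside these values. All 7 endothelial markers had higher fitted levels in KO. At an unadjusted edgeR p below 0.05 there were 7, against 18% of all genes. This list, like the others, was chosen with earlier results of these data known, so its share is a description. After adjustment edgeR called 0, against 0.0862% of all genes, and DESeq2 called 4, against 5.51%. Their summed level was 33.3, 19.6 and 24.2 CPM in KO, against 12.1, 17.0, 12.7 and 12.3 CPM in WT, led by Vwf at 22.8, 10.4 and 19.2 CPM in KO and 9.71 to 12.8 CPM in WT. The defining junction gene Cdh5 was at 0.924, 0.583 and 0.699 CPM in KO and 0.0318 to 0.188 CPM in WT. WT 4, with 249 CPM of Fabp4, had an endothelial sum of 12.3 CPM, the second lowest of all libraries. Among the 8 adipocyte markers the sum was 7.35 to 11.8 CPM in KO and 7.70 to 11.2 CPM in WT, led by Lipe, and Adipoq had 0 counts in every KO library and 1 count in WT. Gpihbp1 is in the endothelial list and in that of the lipoprotein lipase system. The part of other cells in the Fabp4 and Fabp5 values was not tested.

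The other marker lists are given as summed levels, and edgeR called 0 of their genes. At an unadjusted edgeR p below 0.05 there were 4 higher and 4 lower of the 14 alveolar macrophage markers, where 18% of all genes passed. At that level there were also 1 higher and 1 lower epithelial marker, and 1 higher marker each of neutrophils, eosinophils and monocytes. Alveolar macrophage markers summed to 50590 to 84001 CPM in KO and 25859 to 61936 CPM in WT, led by Chil3 at 40503 to 72178 CPM in KO and 16623 to 50491 CPM in WT. DESeq2 called 1 of the 14 higher and 4 lower, against 5.51% of all genes. Epithelial markers summed to 161 to 240 CPM in KO and 266 to 433 CPM in WT, led by Epcam at 9.24 to 92.6 CPM in KO and 135 to 302 CPM in WT. Of the 9 epithelial markers, however, 7 had higher fitted levels in KO and 2 lower, with a median log2 fold change of 0.88. The surfactant gene Sftpc was at 69.5, 63.1 and 19.2 CPM in KO and 12.9 to 47.2 CPM in WT. Erythroid markers summed to 285 to 856 CPM in KO and 13.6 to 348 CPM in WT, led by Hba-a2. Eosinophil markers summed to 20.2 to 67.0 CPM in KO and 3.06 to 10.4 CPM in WT, with Prg3 at 0 in all libraries. Most of this sum was Ear6, which DESeq2 called higher, at 19.8 to 66.8 CPM in KO and 2.97 to 10.1 CPM in WT. Ccr3, the only other eosinophil marker tested, overlapped at 0.231 to 0.478 CPM in KO and 0.0318 to 0.469 CPM in WT. Neutrophil markers, led by S100a8 and with Ly6g at 0 throughout, summed to 13.3 to 35.2 CPM in KO and 7.76 to 20.2 CPM in WT, and monocyte and interstitial macrophage markers, led by Ccr2, to 13.7 to 29.6 CPM in KO and 9.54 to 24.2 CPM in WT. Fibroblast markers (Col3a1 highest) reached at most 12.4 CPM in KO and 6.88 CPM in WT, lymphocyte markers (Cd3e highest) 9.57 CPM in KO and 6.01 CPM in WT, and dendritic cell markers (Clec9a highest) 8.79 CPM in KO and 6.67 CPM in WT.

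Lipoprotein lipase hydrolyses the triglyceride of lipoproteins outside the cell, and Angptl4 is a secreted protein that inactivates it. Lpl had 2068, 2356 and 2081 CPM in KO, against 2443, 2701, 2394 and 2057 CPM in WT. WT 4 was the lowest of all libraries, and the groups overlapped. On the log2 scale the difference was -0.15 ± 0.11 SE (edgeR adjusted p = 0.507), and -0.18 without WT 4 and KO 3.

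Angptl4 had 353, 361 and 340 CPM in KO, against 451, 522, 459 and 402 CPM in WT. Every KO library was below every WT library, and the KO libraries lay close together. The mean was 351 ± 10.5 CPM in KO and 459 ± 49.2 CPM in WT (SD, n = 3 and 4). The log2 fold change was -0.39 ± 0.10 SE, which edgeR did not call (adjusted p = 0.111) and DESeq2 did (adjusted p = 0.0105). It was -0.42 without WT 4 and KO 3. The number of Angptl4 counts per Lpl count was 0.170, 0.153 and 0.163 in KO, against 0.185, 0.193, 0.192 and 0.196 in WT, so inhibitor reads per lipase read were lower in each KO library than in any WT library. The ratio was not tested.

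Lipid droplets are coated by Plin2, which shields the stored triglyceride, and enlarged by Cidec, which transfers lipid between droplets in contact. Plin2 had 3175, 3991 and 2993 CPM in KO, against 3232, 3648, 4109 and 3457 CPM in WT. KO 2 lay within the WT range and the other KO libraries under it. The log2 fold change was -0.09 ± 0.12 SE (edgeR adjusted p = 0.735), and -0.03 without WT 4 and KO 3. Of its 50-base stretches, 2.57% also occur in Gm12551, which is not analysed here.

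Cidec had 316, 417 and 410 CPM in KO, against 555, 636, 656 and 534 CPM in WT. The highest KO library was well below the lowest WT library, and KO 1 was the lowest of all. The mean was 381 ± 56.4 CPM in KO and 595 ± 59.7 CPM in WT (SD, n = 3 and 4). The log2 fold change was -0.64 ± 0.12 SE, with the smallest unadjusted edgeR p of the 10 genes (0.000531), which edgeR's adjustment over all genes did not pass (adjusted p = 0.0898). DESeq2 called it (adjusted p = 0.000174). By edgeR it passed without WT 4 (-0.69, adjusted p = 0.0447), where 2.25% of all genes tested did, a fit that supports no call. It passed in no other edgeR fit that left out 1 library, with -0.53 (adjusted p = 0.337) without KO 1. It was -0.75 without WT 4 and KO 3. No 50-base stretch of Cidec occurs in another gene's transcripts.

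The number of Cidec counts per Plin2 count was 0.0995, 0.104 and 0.137 in KO, against 0.172, 0.174, 0.160 and 0.155 in WT. The mean was 0.114 ± 0.0203 in KO and 0.165 ± 0.00945 in WT (SD, n = 3 and 4). The groups did not overlap, and the ratio was not tested.

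Dgat1 and Dgat2 are unrelated enzymes that both join the last fatty acid to diglyceride. Dgat1 had 88.2, 83.3 and 77.7 CPM in KO, against 64.9, 44.7, 59.1 and 60.6 CPM in WT. All KO libraries were above all WT libraries. The mean was 83.0 ± 5.28 CPM in KO and 57.3 ± 8.78 CPM in WT (SD, n = 3 and 4), a difference of 0.53 ± 0.12 SE on the log2 scale (edgeR adjusted p = 0.0975, DESeq2 adjusted p = 0.00641). Without WT 4 and KO 3 it was 0.61.

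Dgat2 had 59.5, 79.1 and 116 CPM in KO, against 149, 113, 110 and 113 CPM in WT. KO 1 and KO 2 were below all WT libraries, whereas KO 3 was within their range. The log2 fold change was -0.51 ± 0.21 SE (edgeR adjusted p = 0.241, DESeq2 adjusted p = 0.113). It was -0.31 without KO 1 (edgeR adjusted p = 0.63) and -0.81 without KO 3 (edgeR adjusted p = 0.0569), so its size rested on these libraries. Without WT 4 and KO 3 it was -0.84. The number of Dgat2 counts per Dgat1 count was 0.675, 0.951 and 1.49 in KO, against 2.29, 2.52, 1.87 and 1.86 in WT. The mean was 1.04 ± 0.415 in KO and 2.14 ± 0.328 in WT (SD, n = 3 and 4), and every KO library was below every WT library, KO 3 included. The ratio was not tested.

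**Figure D2:**
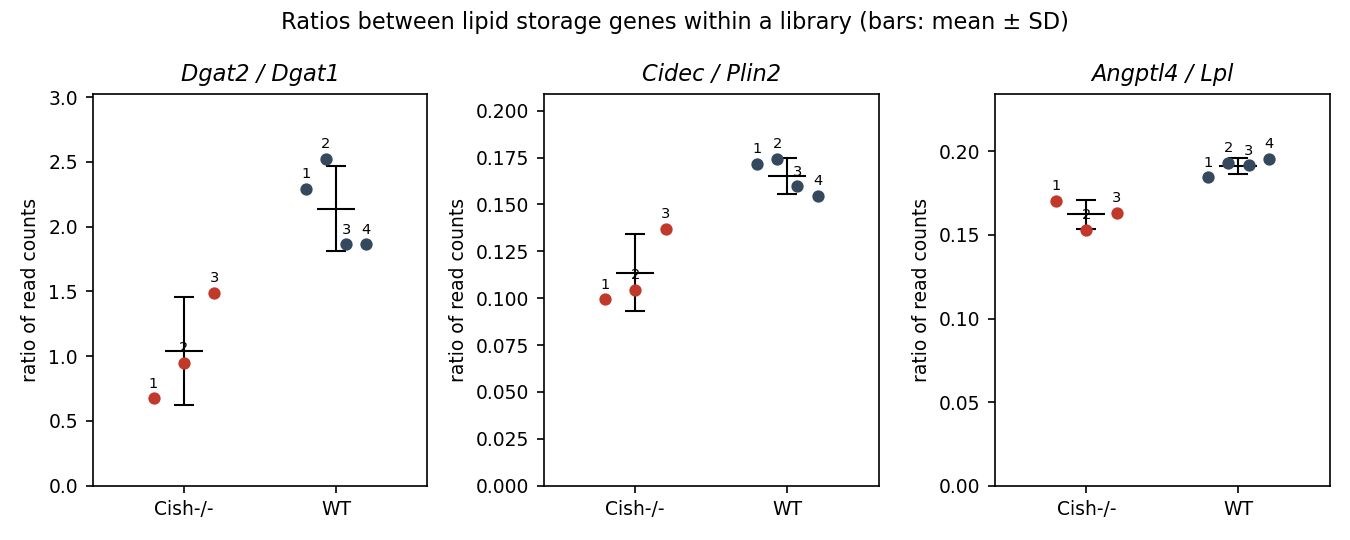
Ratios of read counts between lipid storage genes within a library (y axis, from 0) in the 3 Cish-/- libraries and the 4 WT libraries. Points are libraries with their replicate number and bars are mean ± SD. For Dgat2 over Dgat1, Cidec over Plin2 and Angptl4 over Lpl, each Cish-/- library lies below each WT library. Only ratios without overlap are shown. Those of Fabp4 to Fabp5 and of Fabp1 to Fabp4 overlapped. Cidec, Angptl4 and Dgat1 were without overlap already as single genes, and the share of all gene pairs without overlap was not counted.

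Pnpla2 encodes adipose triglyceride lipase, the enzyme of the first step of triglyceride breakdown. It had 230, 244 and 179 CPM in KO, against 176, 189, 208 and 180 CPM in WT. KO 1 and KO 2 were the highest libraries and KO 3 was within the WT range. The log2 fold change was 0.21 ± 0.12 SE (edgeR adjusted p = 0.378), and 0.31 without WT 4 and KO 3.

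**Figure D3:**
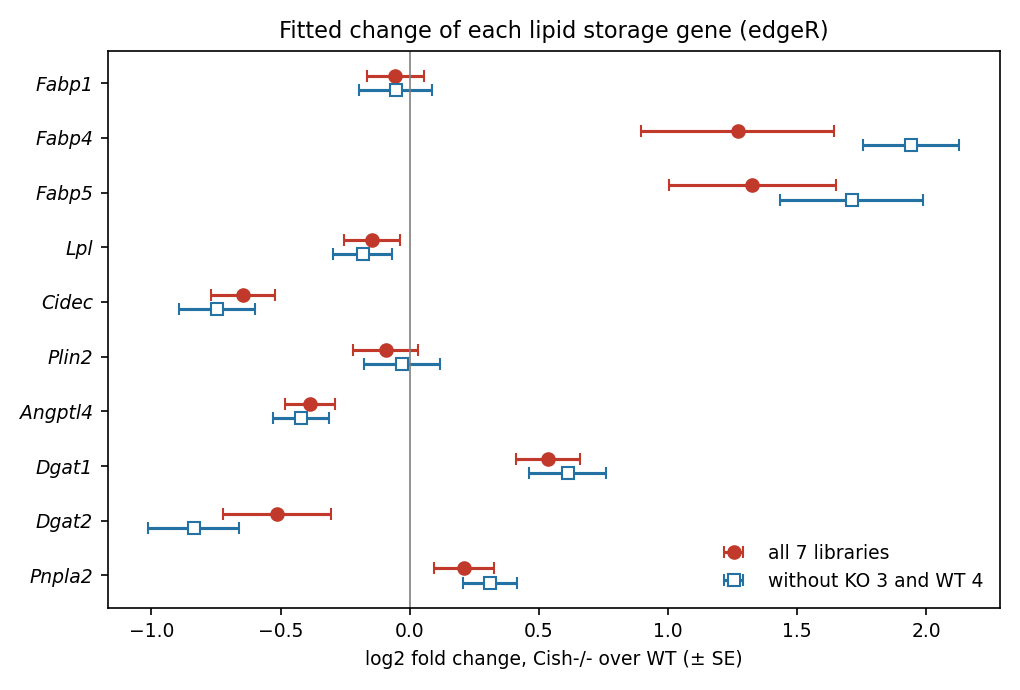
Fitted log2 fold change of each gene (x axis, Cish-/- over WT, edgeR) with bars of ± SE, from all 7 libraries (filled) and without KO 3 and WT 4 (open). All genes but Fabp1 and Plin2 lie farther from 0 without these 2 libraries, with the largest shifts for Fabp4, Fabp5 and Dgat2. The 2 libraries were the nearest of the 2 genotypes on the first principal component. Fabp1, Lpl and Plin2 lie near 0 in both fits.

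**Figure D4:**
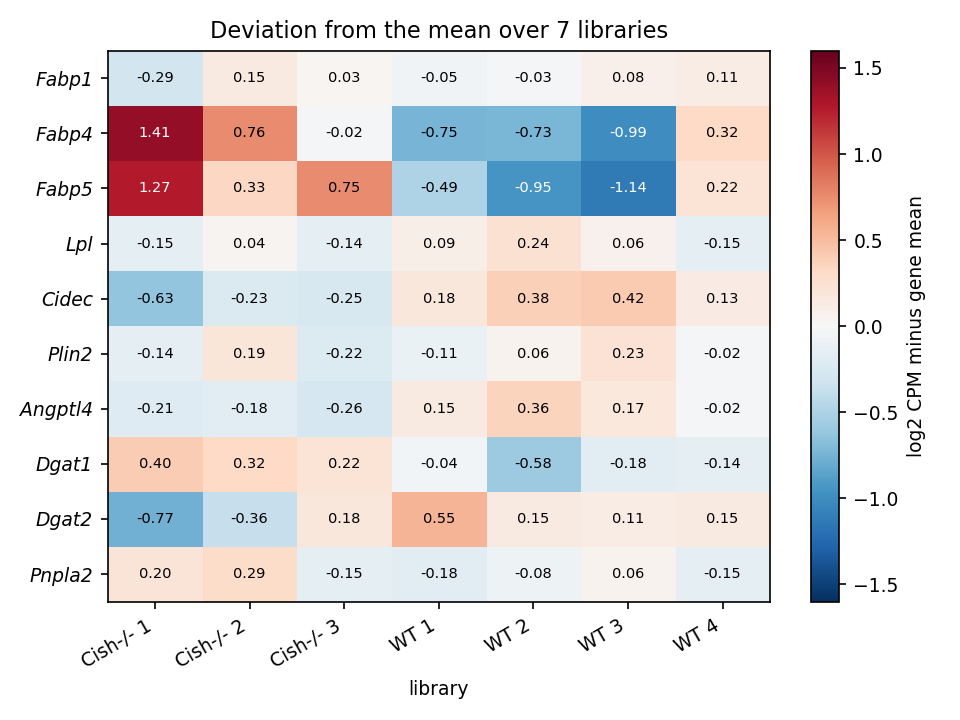
Log2 CPM of each gene minus its mean over the 7 libraries, Cish-/- libraries left and WT libraries right; the color scale gives the deviation. Fabp4 runs from 1.41 in Cish-/- 1 to -0.99 in WT 3, and WT 4 shows 0.32 for Fabp4 and 0.22 for Fabp5, on the side of the Cish-/- libraries, but 0.13 for Cidec, on the side of the other WT libraries.

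Per kilobase of the principal transcript, Plin2 and Fabp1 were far more highly expressed than the other 8 genes. Plin2 reached 1794 ± 282 CPM per kilobase in KO and 1913 ± 197 in WT, the place 22 in KO and 21 in WT among 11599 genes. Fabp1 followed with 1376 ± 207 CPM per kilobase in KO and 1431 ± 80.4 in WT (SD, n = 3 and 4 for all levels per kilobase). In each genotype these were followed by Lpl, at 527 ± 39.5 CPM per kilobase in KO and 583 ± 64.3 in WT, and the libraries of these 3 genes did not overlap one another.

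The order below Lpl was not the same in both genotypes. In KO the means ran from Fabp4 (394 ± 186 CPM per kilobase) through Fabp5 (278 ± 90.7) to Cidec (221 ± 32.8), and neighbours from Lpl to Cidec overlapped in their libraries. Pnpla2 (121 ± 18.9) and Angptl4 (106 ± 3.18) also overlapped, as did Dgat1 (44.0 ± 2.80) and Dgat2 (37.5 ± 12.6). In WT, Cidec (346 ± 34.7 CPM per kilobase) lay above Fabp4 (164 ± 76.7) without overlap. Fabp4, Angptl4 (139 ± 14.9), Fabp5 (111 ± 49.9) and Pnpla2 (105 ± 7.79) overlapped from neighbour to neighbour, and Dgat2 (53.6 ± 8.16) lay above Dgat1 (30.4 ± 4.65) without overlap. The order depends on the length used. With the union of all annotated exons, which holds retained introns for Fabp4 and Fabp5, Fabp1 came before Plin2 in both genotypes, Cidec before Lpl in WT, and Fabp4 averaged 78.7 CPM per kilobase in KO and 32.7 in WT.

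The genes closest in pattern to Cidec over the 7 libraries, by the root-mean-square difference of log2 deviations, were Marveld1 (0.0592), Klra2 (0.0644), Pilra (0.0650), Mdp1 (0.0671) and Slamf9 (0.0715), out of 7869 genes. Their log2 fold changes lay between -0.70 for Pilra and -0.63 for Slamf9. Values near that of Cidec follow from the selection, which used the same KO and WT libraries. Those closest to Fabp1 were Zfp148 (0.0375), Nip7 (0.0448), Ccny (0.0512), Cd200r1 (0.0522) and Mat2b (0.0555).

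Of the related genes outside the 10, 93 in 7 lists were tested, and edgeR called 0 of them, with 18 at an unadjusted edgeR p below 0.05 (19.4%, against 18% of all genes) and 6 called by DESeq2 (6.45%, against 5.51% of all genes). These shares are near those of all genes, so the genes below are given as values and not as a result about the lists. Pparg itself had 442, 587 and 365 CPM in KO, against 413, 438, 528 and 401 CPM in WT, a log2 difference of 0.06 ± 0.16 SE (edgeR adjusted p = 0.876), and the groups overlapped. Among 12 tested genes for PPARg and its partners, DESeq2 called 1 lower: Nrip1, a corepressor of nuclear receptors, with 58.4 ± 21 CPM in KO and 89.8 ± 12.4 CPM in WT (SD, n = 3 and 4, DESeq2 adjusted p = 0.047, edgeR adjusted p = 0.183). Among 12 genes of fatty acid uptake and binding, DESeq2 called 1 lower: Scp2, a lipid carrier protein, with 260, 322 and 302 CPM in KO and 386 to 403 CPM in WT (DESeq2 adjusted p = 0.00168, edgeR adjusted p = 0.095).

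Among 13 other genes of triglyceride synthesis, DESeq2 called 2 lower and 0 higher. They were Gpat3, of the first acylation step, at 76.3 ± 11.5 CPM in KO and 118 ± 24.9 CPM in WT (DESeq2 adjusted p = 0.0113, edgeR adjusted p = 0.126), and Agpat4, of the second, at 63.7 ± 3.54 CPM in KO and 78.4 ± 4.54 CPM in WT (SD, n = 3 and 4, DESeq2 adjusted p = 0.0314, edgeR adjusted p = 0.123). The list's median log2 fold change was 0.02. Among 11 genes of lipolysis, DESeq2 called 1 lower, Pnpla3, at 0.906 CPM in KO and 2.40 CPM in WT, and 1 higher, Ces1d, at 1.06 CPM in KO and 0.233 CPM in WT, both at low levels. Abhd5, the activator of Pnpla2, differed by -0.20 ± 0.11 SE on the log2 scale (edgeR adjusted p = 0.356), and Mgll, which completes triglyceride breakdown, 0.26 ± 0.16 SE (edgeR adjusted p = 0.423).

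DESeq2 called 0 genes of the other 3 lists. For the lipoprotein lipase system (12 tested, median -0.01, 1 higher and 2 lower at an unadjusted edgeR p below 0.05), the maturation factor Lmf2 had a log2 fold change of -0.22 (edgeR adjusted p = 0.185) and Apoc1, an apolipoprotein, -1.58 (edgeR adjusted p = 0.222). For droplet proteins (12 tested, median 0.03, 0 higher and 1 lower at that level), Rab18 had -0.19 (edgeR adjusted p = 0.259) and Plin3 0.24 (edgeR adjusted p = 0.316). For further PPARg target genes (21 tested, median -0.08, 3 higher and 3 lower at that level), Acadl, of fatty acid oxidation, had 0.38 (edgeR adjusted p = 0.164) and the mitochondrial carnitine carrier Slc25a20 -0.21 (edgeR adjusted p = 0.178).

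**Figure D5:**
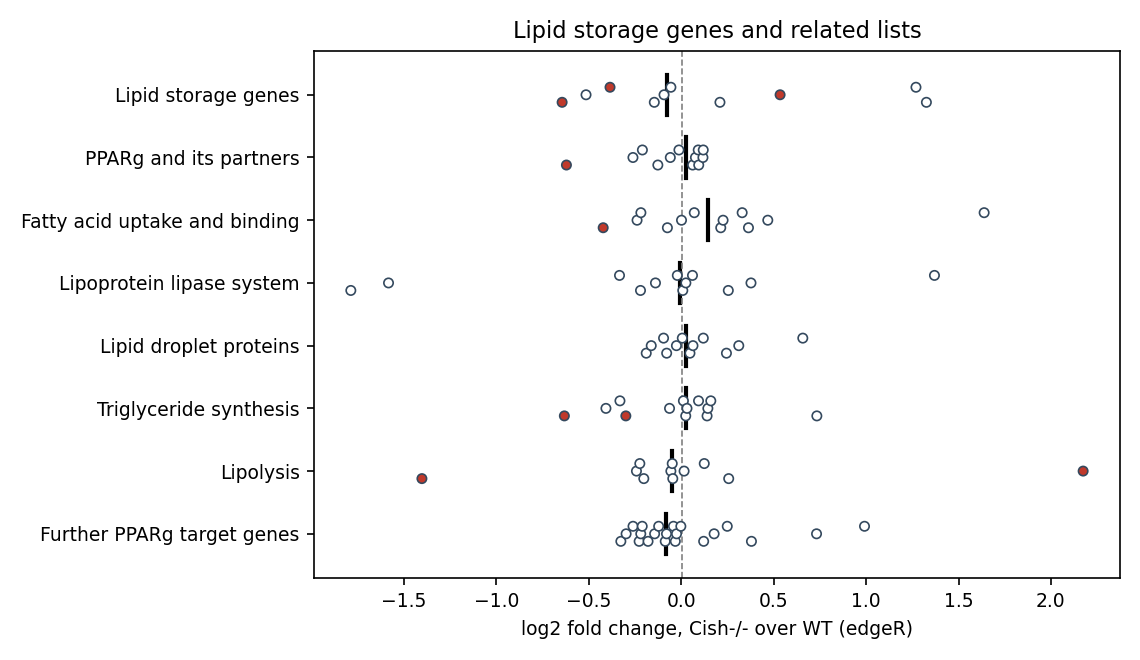
Log2 fold change of every tested gene (x axis, Cish-/- over WT, edgeR) of the lipid storage genes and the 7 related lists (rows). Points are genes, filled where DESeq2 called them, and the black bar is the list's median. Medians lie between -0.08 and 0.14, and each list holds genes on both sides of 0.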

How the data were processed

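The authors deposited a table of raw read counts per gene for 7 libraries. Counting with rsubread is named by the deposited table, and mm10 and DESeq2 are named in the submitters' processing notes without their role. The sources used here give no aligner settings, annotation, filters or rule for multi-mapping reads. The counts of 1036 rows without a symbol, between 0.376% and 0.424% of each library, were left out.

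The main test was the quasi-likelihood F test of edgeR 4.0.16 (R 4.3.3) on genotype, after filterByExpr and TMM scaling, with 5 residual degrees of freedom and Benjamini-Hochberg adjustment over 12759 genes. The common biological coefficient of variation was 0.187. Alternatives used DESeq2 1.42.0, other scalings and filters, a block for the replicate number, omission of libraries, and voom of limma 3.58.1 with sample quality weights. The edgeR test was tested on simulated data. Log2 CPM used a prior count of 2.

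The lipid storage genes and all gene lists were chosen with earlier results of these data known. Besides the 10 lipid storage genes, Cish and Pparg, the rule named up to 4 genes of each of 7 related lists averaging at least 5 CPM in the higher genotype: those called by edgeR or DESeq2, otherwise the 2 with the smallest edgeR p. It also named the most abundant gene of each of 11 marker lists, and the 5 genes of at least 10 CPM closest in pattern to Cidec and to Fabp1. Pnpla3, Ces1d, Cdh5, Sftpc, Siglecf, Gpihbp1, Adipoq, Ccr3, Prg3 and Ly6g were named outside this rule, after their values were seen.

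Gene positions and transcript lengths came from GENCODE M21 on GRCm38. Shared sequence was counted as 50-base stretches of a gene's transcripts found in transcripts of other genes. Promoter sequences came from the RefSeq table of GRCm38.p6. The direct repeat was searched on both strands in the 250 bases before each start, with up to 3 mismatches in its 12 fixed bases and, as an alternative, up to 2.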

Additional observations from a re-analysis of the deposited data

Results flagged for a closer look

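In 50 gene-wise examinations of the 4 WT libraries, 3 values lay far from the other WT libraries relative to the range of the group, and chance alone flags about 1 in 20 such groups. Fabp4 had 249 CPM in WT 4, against 99.8 to 120 CPM in the other 3 WT libraries. Dgat2 had 149 CPM in WT 1, against 110 to 113 CPM in the other 3 WT libraries. Ces1d, which encodes a carboxylesterase with triglyceride hydrolase activity, had 0.563 CPM in WT 4, against 0.0839 to 0.159 CPM in the other 3 WT libraries. The 3 KO libraries were too few for this examination.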

How the results depend on the processing

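With RLE or upper-quartile factors, library sizes only, at least 5 CPM in 3 libraries, or limma voom with sample quality weights, 0 of the 10 genes passed, where 11, 11, 12, 21 and 46 genes passed in all. The shares of the genes tested were 0.0862%, 0.0862%, 0.0941%, 0.221% and 0.361%, in that order. DESeq2 called 746 of 13541 genes (5.51%) and 3 of the 10 (Cidec -0.65, Angptl4 -0.39, Dgat1 0.53). Without a filter, edgeR called 397 of 22147 genes (1.79%) and 4 of the 10 (Fabp4 1.25, Fabp5 1.31, Cidec -0.66, Dgat1 0.52). Without WT 4 and KO 3, the nearest libraries of the 2 genotypes on the first principal component, edgeR called 590 of 12906 genes (4.57%). Of the 10 it then called 4 (Fabp4 1.94, Fabp5 1.71, Cidec -0.75, Dgat2 -0.84). Leaving out these 2 libraries widens the difference by construction. The cause of the other changes was not tested. Cish passed by DESeq2 (-1.85), with library sizes only (-1.88), without a filter (-1.85), at 5 CPM (-1.82), by voom (-1.70) and without WT 4 and KO 3 (-1.48).

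With single libraries left out, edgeR called between 7 and 284 genes (0.0552% to 2.25% of those tested) and 0 to 3 of the 10. It called 284 and 3 without WT 4, and 217 (1.67%) and 0 without KO 3. On the first principal component each of these was the library of its genotype nearest the other genotype. Leaving out either therefore widens the difference by construction. Log2 fold changes ranged from 0.86 to 1.65 for Fabp4, 1.05 to 1.67 for Fabp5, -0.72 to -0.53 for Cidec, -0.81 to -0.31 for Dgat2, -0.15 to 0.060 for Fabp1 and -2.0 to -1.58 for Cish. The median of the 10 ranged from -0.18 without KO 2 to 0.0063 without KO 1. Only Fabp1, without KO 1 (0.060), changed direction among the 10 in the 16 alternatives run.

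With the replicate block, edgeR called 430 genes (3.37% of those tested) and 3 of the 10 (Fabp4 1.54, Fabp5 1.64, Cidec -0.70) and Cish (-1.57). Number 4 occurs only in WT, so WT 4 gave no information on genotype in this fit. The fit without WT 4 called the same 3 of the 10, and both fits compare the genotypes without the WT library nearest the KO libraries. Deviations of same-numbered libraries correlated at -0.00828, 0.142 and -0.0173, where all pairs of a KO and a WT library ranged from -0.207 to 0.155. None of the KO libraries correlated best with its own number, but so few libraries cannot exclude pairing. The labels give the numbers no meaning, so they were not taken as pairs.

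Limits: with 3 and 4 libraries and 5 residual degrees of freedom, a missed threshold does not show equal levels. The counts used here carry neither molecular identifiers nor strand. Levels per kilobase moved with the transcript length used.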
